A study of Mus musculus with 10 samples.

Results

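The subject of these results is a group of 32 mouse genes of cholesterol and fatty acid synthesis, chosen by gene symbol for their place in the pathway. The choice was made with earlier results of these data known, so counts of members set beside all tested genes describe this list. The 32 genes were found among the 57010 gene identifiers of an RNA sequencing table, and all 32 were among the 12455 genes abundant enough to be tested. Their roles fall into 5 classes: 7 genes of the mevalonate steps, 11 of the sterol steps, 6 of control and transport, 4 of fatty acid chain synthesis and 4 desaturases.

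The cells were macrophages grown from mouse bone marrow over 7 days with 20 ng/mL of the growth factor M-CSF (macrophage colony-stimulating factor). They came from wild-type mice (WT) or from mice lacking WASp (WKO), the product of the gene Was, which drives branched actin assembly in blood cells. Cells were either left unconfined or held for 1 h under a ceiling 3 µm high, so that the groups were WT unconfined (2 libraries), WKO unconfined (2), WT confined (3) and WKO confined (3). The design asks what the loss of WASp does in each condition and what confinement does in each genotype. Both genotypes received the same culture. The labels give no strain, age, sex or number of mice, do not say how the allele was made or whether unconfined cells were handled in the device, and do not say that libraries came from separate mice or cultures, so p-values measure only the spread between libraries, which may be technical.

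Cells make cholesterol from acetyl-CoA through mevalonate, isoprenoid units, squalene and a series of sterols, and make fatty acids from the same acetyl-CoA by carboxylation, chain synthesis, elongation and desaturation. Many of these enzymes are transcribed under SREBP factors, which are held in the endoplasmic reticulum by SCAP and the INSIG proteins when sterols are plentiful and are released to the nucleus when sterols run low. In macrophages the same lipids build membrane and feed inflammatory signalling, and the liver X receptors, which sense oxysterols, induce genes of sterol export as well as Srebf1.

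Recovered depth was 13295701 to 19329908 reads per library, and the member with the fewest reads in any library still had 48. Was stood at 1308 to 1649 normalized reads in WT libraries and at 96.9 to 154 in WKO libraries, so the labels and the targeted gene went together. The summed level of 8 macrophage markers was 179561 to 208283 in WT and 241895 to 314561 in WKO libraries. Lyz2 held most of that sum, at 100507 to 132963 in WT and 157886 to 200203 in WKO libraries. Csf1r, Lyz2 and Mertk were higher in every WKO library than in any WT library, while the other markers of the list overlapped between genotypes. Itgam and Cd14 were lower in the unconfined WKO than in the unconfined WT libraries. Markers of other marrow cells were higher in most WKO libraries: 8 neutrophil and progenitor genes summed to 2542 to 10794 in WT and 6956 to 29739 in WKO libraries, and 5 B lineage genes to 408 to 859 in WT and 1572 to 5195 in WKO libraries. The 10 stromal markers summed to 184 to 1735 in WT libraries and 831 to 9831 in WKO libraries, the top value belonging to WKO confined replicate 5. The 4 dendritic cell markers summed to at most 38.9 in WT and 79.9 in WKO libraries, with Xcr1 at 0 throughout. Of 5 adipocyte markers, Cidec, Lep and Cfd were at 0 in all libraries and the list never summed to more than 7.50. The part of these other cells in the results was not tested. In such bulk RNA, fewer cells of a type and less RNA per cell cannot be told apart.

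The promoters of 3 members are shown: Hmgcs1, the single matched gene with the full sterol element searched for and lower in WKO cells, Fasn, lower in WKO cells, and Insig1, which rose on confinement. Hmgcs1 follows from the rule for printing promoters, and the other pair was chosen after the values were seen. Each is 300 bases of RefSeq sequence (GRCm38.p6), 5′ to 3′ on the gene's own strand, from 250 bases before to 50 after the annotated start. Capitals mark the sterol regulatory element consensus TCACNCCAC and the NF-Y box CCAAT or its reverse ATTGG. Hmgcs1 is at chr13:119690101-119690400 on the plus strand, Fasn at chr11:120824498-120824797 on the minus strand and Insig1 at chr5:28071162-28071461 on the plus strand.
Hmgcs1: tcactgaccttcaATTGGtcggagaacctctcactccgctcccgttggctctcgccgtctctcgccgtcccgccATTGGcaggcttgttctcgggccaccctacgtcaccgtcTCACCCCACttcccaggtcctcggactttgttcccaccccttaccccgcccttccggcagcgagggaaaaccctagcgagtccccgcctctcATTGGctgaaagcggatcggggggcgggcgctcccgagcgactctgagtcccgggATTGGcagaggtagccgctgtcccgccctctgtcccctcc
Fasn: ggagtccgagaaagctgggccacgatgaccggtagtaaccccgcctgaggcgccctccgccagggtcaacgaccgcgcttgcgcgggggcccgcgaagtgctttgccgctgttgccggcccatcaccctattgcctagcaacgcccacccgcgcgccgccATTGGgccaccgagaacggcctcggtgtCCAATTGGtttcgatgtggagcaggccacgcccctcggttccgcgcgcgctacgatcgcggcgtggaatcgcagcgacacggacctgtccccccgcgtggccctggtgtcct
Insig1: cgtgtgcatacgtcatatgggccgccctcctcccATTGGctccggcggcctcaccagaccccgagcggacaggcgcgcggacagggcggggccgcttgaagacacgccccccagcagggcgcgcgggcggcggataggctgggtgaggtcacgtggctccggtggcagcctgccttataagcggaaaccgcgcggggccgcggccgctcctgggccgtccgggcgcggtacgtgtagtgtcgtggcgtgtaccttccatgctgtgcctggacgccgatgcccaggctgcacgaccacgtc

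In the Hmgcs1 promoter the first base of the sterol element lies 137 bases before the start (position -137), on the plus strand, between NF-Y boxes. Promoters were found for 25 of the 32 members. They were missing for Fdps, Fdft1, Sqle, Stard4, Scd1, Scd2 and Fads1, so the motif counts leave these genes out. On either strand TCACNCCAC occurred in 1 of the 25, against 1.44% of 27025 genes in the same RefSeq table. Without its first letter (CACNCCAC, added after the first search, and overlapping the full element wherever that occurs) it occurred in 3, namely Acat2, Hmgcs1 and Insig1, against 7.12% of genes. CCAAT occurred in 20 of the 25 against 41.1% of genes, and the GC box GGGCGG in 21 of the 25 against 38.2%. The background was all 27025 genes, whether or not they were tested here, so the share among expressed genes is not known. A gene counted where any of its promoters held the motif. These matches describe letters in a window and say nothing of whether a factor binds there.

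Levels differed widely between members when divided by exon length. Per kilobase, Insig1 (the sterol-regulated anchor of SCAP) was highest with a mean of 913 normalized reads, followed by Acly (ATP-citrate lyase, the source of cytosolic acetyl-CoA) at 705 and Scd2 (a stearoyl-CoA desaturase) at 654. Srebf2, the SREBP of the cholesterol genes, stood at 550.0 per kilobase and Hmgcs1, which makes HMG-CoA, at 499. The lowest were Elovl6, an elongase of palmitate, and Scd1, at 19.5 per kilobase, so of the paired desaturases these macrophages held mainly Scd2.

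The fitted level of most of these transcripts was lower in cells lacking WASp, in both conditions, and for 15 the difference passed the test averaged over conditions. In that comparison 15 of the 32 fell and 0 rose (limma adjusted p under 0.05), against a background of 2.67% of tested genes called lower. Because the list was drawn up with earlier results of these data known, this excess is a description and not an independent test. The members' median log2 difference was -0.39, while the median of all tested genes was 0.003. The desaturases Scd1, Scd2 and Fads2 had the lowest values, 1.99- to 2.20-fold lower, and the sterol enzymes Hsd17b7, Sqle and Cyp51 and the mevalonate enzymes Fdps, Idi1 and Acat2 followed. By class, 4 of 7 mevalonate genes, 5 of 11 sterol genes, 2 of 6 control genes, 1 of 4 chain synthesis genes and 3 of 4 desaturases fell. Relative to the mean of the WT unconfined libraries, the members' median in each of the 5 WKO libraries lay between -0.39 and -0.35 on the log2 scale, and in each of the 5 WT libraries between -0.07 and 0.09. The WT unconfined libraries set that mean themselves. In the WKO libraries 27 to 30 of the 32 members lay below that mean.

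**Figure D1:**
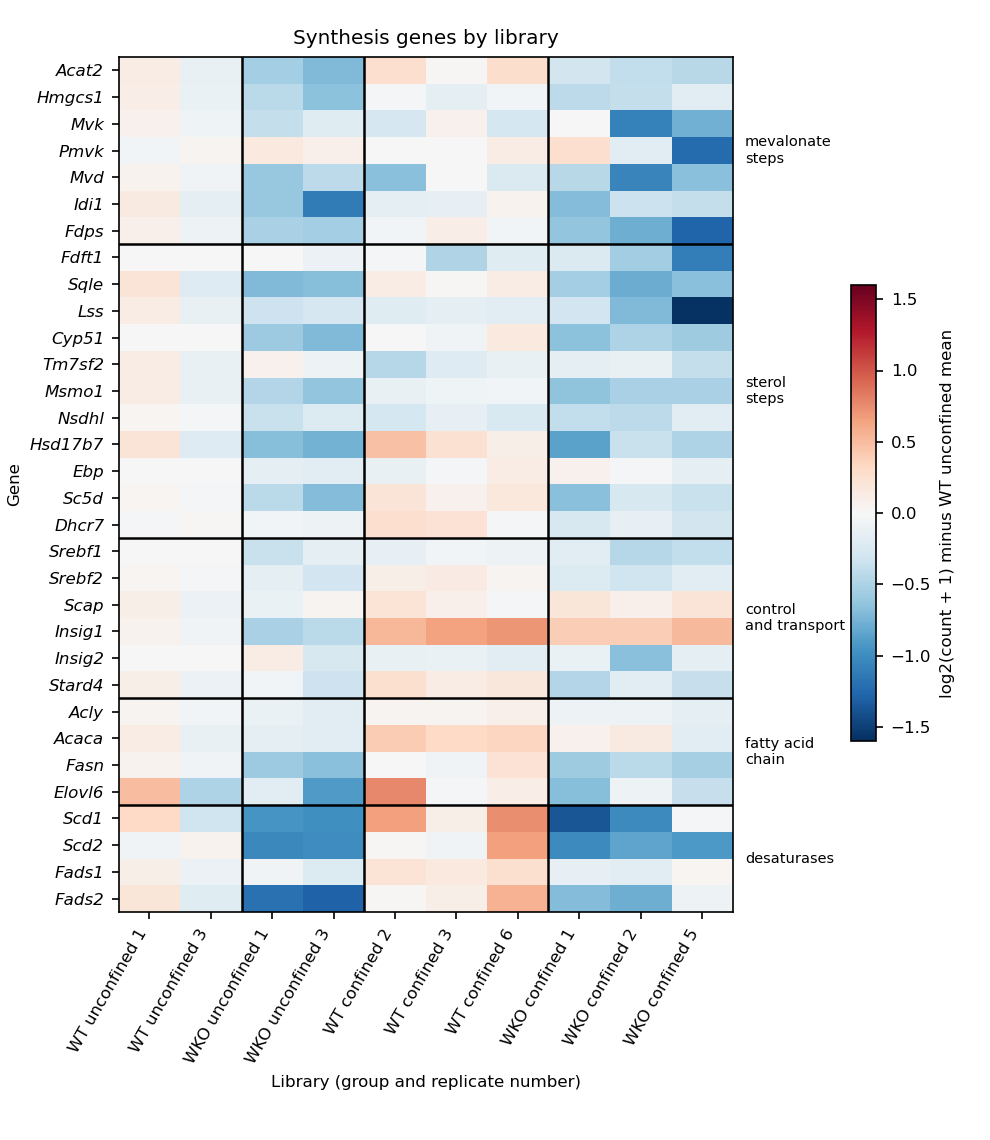
Heat map of the 32 members (vertical, by class) in the 10 libraries (horizontal, by group), coloured by log2 difference from the mean of the WT unconfined libraries. The WKO columns are mostly on the lower side of the scale, with Scd1 and Fads2 closer to 0 in WKO confined replicate 5, and Insig1 is higher in both groups of confined cells.

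Taking conditions one at a time, unconfined cells gave a negative WKO difference for 31 of 32 members (median -0.39 against 0.002 for all tested genes), but 0 passed the limma adjusted threshold, in a comparison where 0.145% of tested genes did. Of the 32, 14 had an unadjusted p under 0.05 (9.6% of tested genes did). With edgeR 0 members and 15 of all tested genes were called, and with DESeq2 9 members and 181 of all. In confined cells 8 members fell and 0 rose, beside 1.2% of tested genes called lower, and 30 of 32 had a negative difference (median -0.42 against 0.004). The 8 were Scd2, Fdps, Hsd17b7, Sqle, Cyp51, Sc5d, Fasn and Msmo1. The fitted difference was negative in both conditions for 29 members. Both WKO unconfined libraries lay below both WT unconfined libraries for 25 members (22.7% of tested genes), and the 3 WKO confined below the 3 WT confined for 23 (10.4%). For 16 members all 5 WKO libraries lay below all 5 WT libraries, against 3.33% of tested genes, and for 0 the reverse held.

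The number of calls depended on single libraries. Without WT confined replicate 2, 3 or 6 the 8 confined calls became 1, 3 and 3, while calls over all tested genes went from 322 to 58, 80 and 141; without WKO confined replicate 1 they became 11 and 701. Without WT unconfined replicate 1 or WKO unconfined replicate 3 the 15 averaged calls became 9 and 7, and those over all tested genes went from 694 to 276 and 169. In the averaged comparison Scd2, Fads2, Sqle, Fdps, Cyp51, Fasn and Msmo1 were called under all alternatives run, and in confined cells Scd2 was. The averaged calls of Hsd17b7 and Sc5d were lost without WKO unconfined replicate 3 (limma adjusted p = 0.0510 and 0.0709). Those of Idi1, Acat2 and Hmgcs1 were lost without that library or without WT unconfined replicate 1 (limma adjusted p up to 0.112, 0.103 and 0.141 over the alternatives), Acat2 also without WKO unconfined replicate 1 and Hmgcs1 also without WT confined replicate 2 or 6.

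**Figure D2:**
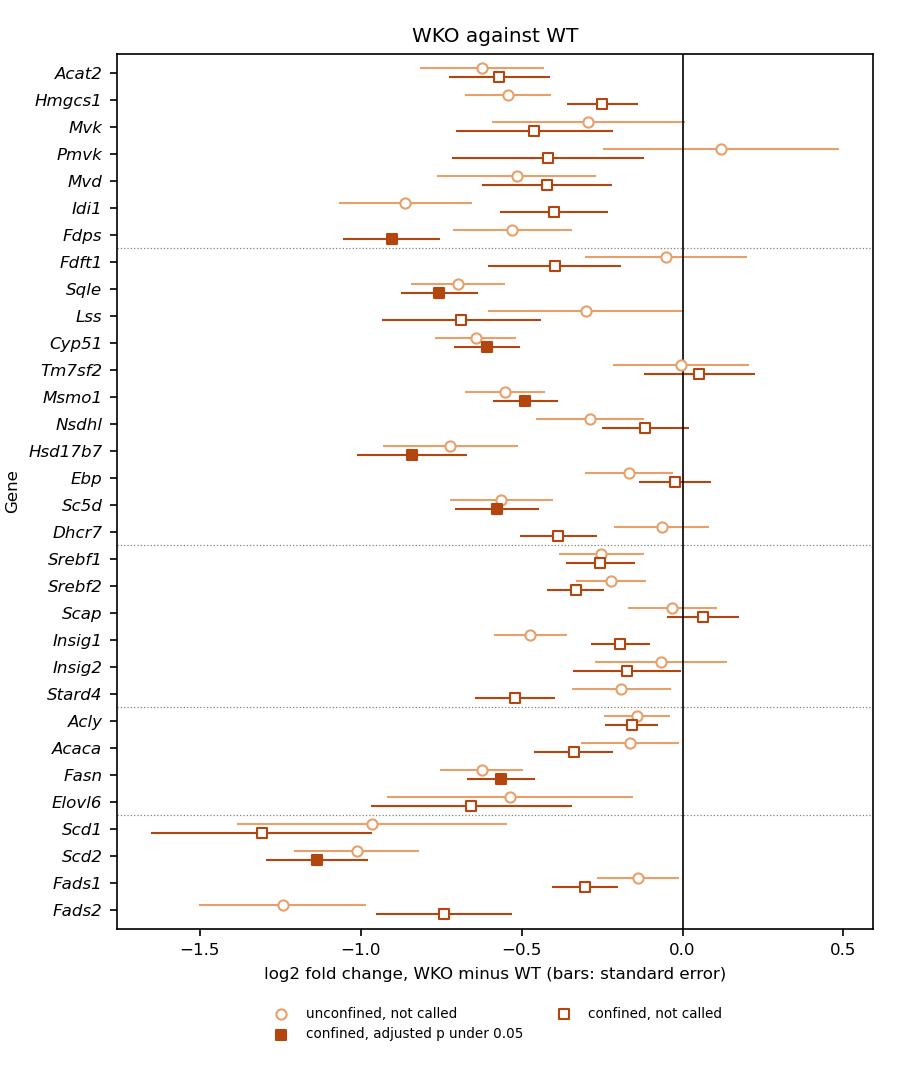
Log2 difference of WKO from WT for each of the 32 members (vertical, by class), in unconfined and confined cells, with bars of 1 standard error from limma and filled symbols for adjusted p under 0.05. Nearly all points lie left of 0, Scap and Tm7sf2 lie near it, and Scd1 and Scd2 lie left of -0.9 in both conditions.

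Library values are given in the order of the replicate numbers, which are 1 and 3 in both unconfined groups, 2, 3 and 6 in WT confined cells and 1, 2 and 5 in WKO confined cells. Among the mevalonate genes, Acat2 encodes the acetyl-CoA acetyltransferase that joins the first acetyl units. Its normalized read count was 254 and 214 in WT and 159.8 and 142 in WKO unconfined cells, and 282, 237 and 284 in WT and 191, 177 and 171 in WKO confined cells. Each WKO library lay below each WT library, with an averaged log2 difference of -0.60 ± 0.12 (SE, limma adjusted p = 0.0181). Hmgcs1, the HMG-CoA synthase, read 2861 and 2472 in WT and 1980.0 and 1686 in WKO unconfined cells, and 2598, 2393 and 2574 in WT and 1991, 2047 and 2339 in WKO confined cells. WKO libraries again lay below WT ones, by -0.40 ± 0.09 (adjusted p = 0.0224, limma), and the gap was wider in unconfined (-0.54) than in confined cells (-0.25), a difference between conditions that did not pass the test (interaction 0.29, limma adjusted p = 0.999). Idi1, which isomerises isopentenyl diphosphate, read 519.6 and 427 in WT and 309 and 217 in WKO unconfined cells, and 425, 428 and 491 in WT and 292, 369.5 and 361 in WKO confined cells. Its averaged difference was -0.63 ± 0.13 (limma adjusted p = 0.0193), with no overlap of genotypes.

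Fdps makes farnesyl diphosphate, the branch point to sterols and to prenylated proteins. It read 1297 and 1163 in WT and 856 and 845 in WKO unconfined cells, and 1190.2, 1324 and 1192 in WT and 791, 714 and 507 in WKO confined cells. WKO confined libraries lay lowest, with differences of -0.53 in unconfined cells (limma adjusted p = 0.373) and -0.90 in confined cells (adjusted p = 0.0120), and -0.72 ± 0.12 averaged (adjusted p = 0.00614). Mvd, the decarboxylase that makes isopentenyl diphosphate, read 389 and 359.9 in WT and 245 and 279.8 in WKO unconfined cells, and 235, 375 and 319 in WT and 274, 180.0 and 236 in WKO confined cells. The genotypes overlapped and the averaged difference of -0.47 did not pass (limma adjusted p = 0.117). Mvk, mevalonate kinase, had an averaged difference of -0.38 (limma adjusted p = 0.306). Pmvk, the next kinase, read 189 and 202 in WT and 219 and 206 in WKO unconfined cells, and 197, 195 and 212 in WT and 236, 174 and 82.7 in WKO confined cells. Here WKO confined replicate 5 was the lowest and the other libraries overlapped, and the WKO difference was 0.12 unconfined (limma adjusted p = 0.958) and -0.42 confined (adjusted p = 0.537).

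In the sterol steps 5 of 11 genes fell. All 5 encode enzymes that act between squalene and cholesterol, as does every gene of this class except Fdft1, which makes squalene. Sqle encodes squalene epoxidase, an early oxygen-requiring step of sterol synthesis. It read 2439 and 1834 in WT and 1291 and 1316 in WKO unconfined cells, and 2301, 2143 and 2294 in WT and 1449, 1217 and 1330.0 in WKO confined cells. WKO cells held 61.0% of the WT mean when unconfined and 59.3% when confined, and the averaged difference was -0.73 ± 0.09 (limma adjusted p = 0.00150). Cyp51, the lanosterol demethylase, read 1582 and 1596 in WT and 1059.6 and 977 in WKO unconfined cells, and 1593, 1522 and 1774 in WT and 1007, 1129 and 1068 in WKO confined cells. Its 5 WKO libraries lay well below its 5 WT libraries, at 64.1% and 65.5% of the WT mean (averaged difference -0.63 ± 0.08, limma adjusted p = 0.00150). Msmo1, which removes the methyl groups at the 4-position together with Nsdhl and Hsd17b7, read 2462 and 2103 in WT and 1647 and 1463 in WKO unconfined cells, and 2104, 2177 and 2208 in WT and 1457, 1587 and 1584 in WKO confined cells. It fell by 0.52 on the log2 scale averaged over conditions (limma adjusted p = 0.00392), with no overlap.

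Hsd17b7, the ketoreductase of that demethylation, read 559 and 421 in WT and 302 and 286 in WKO unconfined cells, and 672, 574 and 519.8 in WT and 267, 379 and 344 in WKO confined cells. It had the lowest averaged difference of the sterol steps, -0.78 ± 0.13 (limma adjusted p = 0.00697). Sc5d, the sterol C5 desaturase, read 1012 and 976 in WT and 738 and 612 in WKO unconfined cells, and 1146, 1041 and 1121 in WT and 622, 832 and 779 in WKO confined cells. The difference was -0.57 ± 0.10 (limma adjusted p = 0.00890), and the genotypes did not overlap. The partner Nsdhl differed by -0.20 (limma adjusted p = 0.326), so 2 of the 3 enzymes of the demethylation named here fell by the test.

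The other sterol genes gave smaller or more scattered values. Fdft1, squalene synthase, read 394 and 397 in WT and 393 and 372 in WKO unconfined cells, and 388, 284 and 346 in WT and 338, 268 and 183 in WKO confined cells. Its libraries overlapped and the averaged difference was -0.22 (limma adjusted p = 0.492). Lss, which closes the rings to lanosterol, read 617 and 528 in WT and 453 and 474 in WKO unconfined cells, and 498, 510.3 and 506 in WT and 461, 349.5 and 191 in WKO confined cells. All 5 WKO libraries lay below all 5 WT libraries, with replicate 5 lowest at 191, and the averaged difference of -0.49 did not pass (limma adjusted p = 0.177). Dhcr7, the last reductase of one branch, differed by -0.23 averaged (limma adjusted p = 0.203), also with no overlap. Ebp, the sterol isomerase, differed by -0.10 (limma adjusted p = 0.604). Tm7sf2, a sterol reductase, read 205 and 175 in WT and 198 and 179.6 in WKO unconfined cells, and 137, 164 and 174 in WT and 172, 175 and 145 in WKO confined cells. The genotypes were mixed and the averaged difference was 0.02 (limma adjusted p = 0.954), with a sign that changed with the library left out.

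Of the 6 genes of control and transport, 2 fell. Srebf2, the precursor of the cholesterol-directed SREBP, read 4278 and 4094 in WT and 3787 and 3396 in WKO unconfined cells, and 4456, 4566 and 4328 in WT and 3581, 3347 and 3683 in WKO confined cells. The WKO libraries lay below the WT ones by an averaged -0.28 ± 0.07 (limma adjusted p = 0.0424). That call was lost under 10 of 19 alternatives, with no filter, the replicate block and each left-out library but WKO confined replicates 1 and 5 (adjusted p up to 0.226, limma). Srebf1, the SREBP of the fatty acid genes, showed no overlap either, with an averaged difference of -0.25 (limma adjusted p = 0.110). Scap, the carrier that takes SREBP to the Golgi, read 946 and 826 in WT and 823 and 909.5 in WKO unconfined cells, and 1032, 938 and 874 in WT and 1011, 935 and 1022 in WKO confined cells. Its genotypes overlapped and its averaged difference was 0.02, with an interval from -0.18 to 0.21. Insig2, the second anchor, differed by -0.12 (limma adjusted p = 0.676) and Stard4, a sterol carrier of the cytosol, by -0.36 (limma adjusted p = 0.0600). Insig1, itself transcribed under SREBP, fell by 0.33 on the log2 scale in WKO cells averaged over conditions (limma adjusted p = 0.0234), with differences of -0.47 in unconfined and -0.19 in confined cells; its library values are given with confinement. That call was lost under 6 of 19 alternatives, the replicate block and the fits without WT unconfined replicate 1, WKO unconfined replicate 1 or 3, or WT confined replicate 3 or 6 (limma adjusted p up to 0.111).

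**Figure D3:**
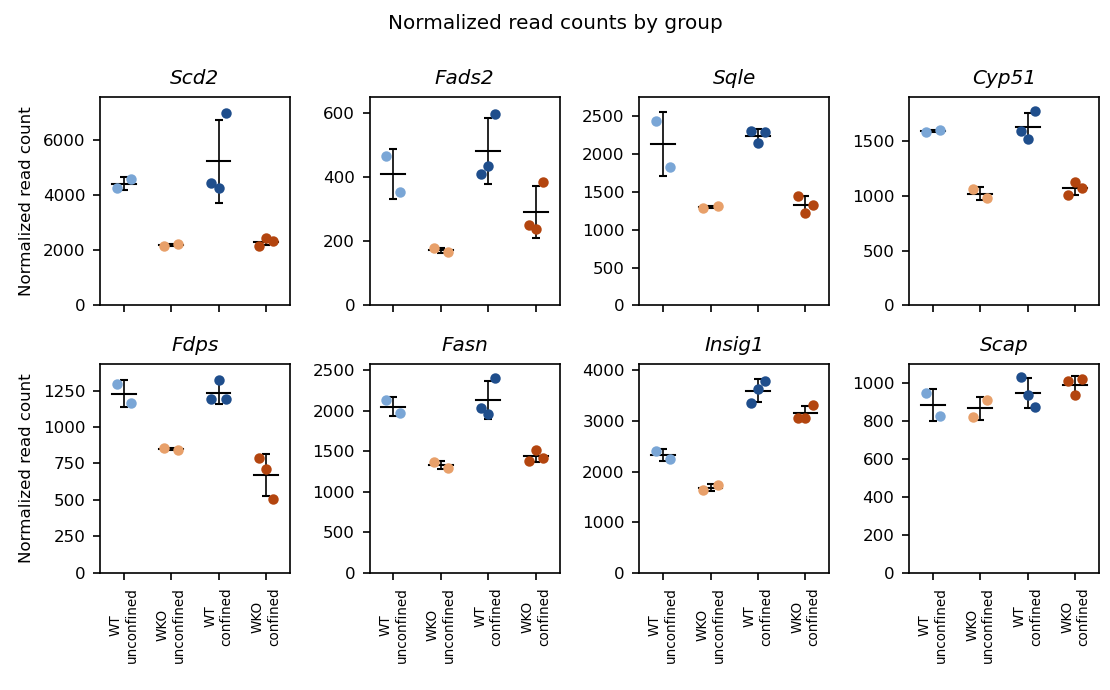
Normalized read counts (vertical, from 0) of Scd2, Fads2, Sqle, Cyp51, Fdps, Fasn, Insig1 and Scap in the 4 groups (horizontal), with each library as a point and each group's mean and SD as a line and bars. Scd2, Sqle, Cyp51, Fdps and Fasn are lower in both WKO groups, Insig1 is higher in both confined groups, and Scap overlaps throughout.

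Of the chain synthesis genes, Fasn, the multi-domain fatty acid synthase, was the one that fell. It read 2129.8 and 1971 in WT and 1366 and 1294 in WKO unconfined cells, and 2034, 1964 and 2398 in WT and 1375, 1516 and 1421 in WKO confined cells. Its WKO libraries held 64.9% of the WT mean when unconfined and 67.4% when confined, with an averaged difference of -0.59 ± 0.08 (limma adjusted p = 0.00241). Acly, which supplies acetyl-CoA, had no overlap between genotypes and differed by -0.15 (limma adjusted p = 0.230). Acaca, which makes malonyl-CoA, differed by -0.25 (limma adjusted p = 0.167). Elovl6 had an averaged difference of -0.60, near that of Fasn, but its libraries ranged from 88.8 to 284 and it did not pass (limma adjusted p = 0.195).

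The desaturases, which put double bonds into fatty acids, had the lowest class median, -1.03 averaged over conditions. On GRCm38, Scd2 (ENSMUSG00000025203, chr19:44293674-44306864, plus strand) and Scd1 (ENSMUSG00000037071, chr19:44394455-44407879, minus strand) lie on one chromosome with Fads2 (ENSMUSG00000024665, chr19:10062765-10101746, minus strand) and Fads1. Scd2 read 4246 and 4568 in WT and 2154 and 2209 in WKO unconfined cells, and 4444, 4233 and 6956 in WT and 2167, 2443 and 2323 in WKO confined cells. The 5 WKO libraries lay between 2154 and 2443 and the 5 WT libraries between 4233 and 6956, with WT confined replicate 6 the highest. WKO cells held 49.5% of the WT mean when unconfined and 44.4% when confined, and the difference was -1.01 (limma adjusted p = 0.0844), -1.14 (adjusted p = 0.00551) and, averaged, -1.08 ± 0.13 (adjusted p = 0.00104). Scd1, the form abundant in liver and fat, read 129 and 82.5 in WT and 53.3 and 51.6 in WKO unconfined cells, and 164, 110.3 and 174 in WT and 39.2, 50.5 and 101 in WKO confined cells. It fell by 1.14 on the log2 scale averaged over conditions (limma adjusted p = 0.0319), from a level far below Scd2, and WKO confined replicate 5 reached the range of the WT libraries. The averaged call was lost under 7 of 19 alternatives, with no filter and without WT unconfined replicate 1, WKO unconfined replicate 1 or 3, WT confined replicate 2 or 6, or WKO confined replicate 2 (limma adjusted p up to 0.151). In confined cells alone Scd1 did not pass (-1.31, limma adjusted p = 0.0683), but it did without that library (limma adjusted p = 0.00886).

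Fads2, the delta-6 desaturase that begins the synthesis of long polyunsaturated fatty acids, read 465 and 355 in WT and 178 and 165 in WKO unconfined cells, and 411, 434 and 598 in WT and 250.3, 237 and 383 in WKO confined cells. Within each condition the WKO libraries lay below the WT libraries, while WKO confined replicate 5 exceeded a WT unconfined library. Its averaged difference was -0.99 ± 0.17 (limma adjusted p = 0.00624). Fads1, the delta-5 desaturase of the same route, differed by -0.22 (limma adjusted p = 0.148).

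WKO confined replicate 5 stood apart within its group for part of the pathway. It was the lowest of the 10 libraries for 5 members, Pmvk, Fdps, Fdft1, Lss and Dhcr7, while Scd1 and Fads2 were higher there than in the other WKO confined libraries by 1.16 and 0.65 on the log2 scale. This is also the library with the highest stromal marker sum, 9831, and the part of stromal RNA in its values was not tested. Without it the averaged and the confined genotype comparisons called 15 and 10 members, and the unconfined comparison called 6. Over all tested genes the same fits called 976, 419 and 141, against 694, 322 and 18 with it.

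Of the 32 members, 1 passed the test for confinement. Insig1 rose in both genotypes, and it was the 1 member called higher in WT cells (background 0.891%), in WKO cells (1.49%) and averaged over genotypes (4.13%), with 0 members lower. On GRCm38 it lies at chr5:28071363-28078662 on the plus strand (ENSMUSG00000045294). Its normalized read count was 2416 and 2241 in WT and 1629 and 1724 in WKO unconfined cells, and 3362, 3640.2 and 3798 in WT and 3054, 3064 and 3325 in WKO confined cells. In each genotype the lowest confined library lay above the highest unconfined library. The rise was 0.63 ± 0.10 in WT (limma adjusted p = 0.0140), 0.91 ± 0.10 in WKO (limma adjusted p = 0.00120) and 0.77 averaged (adjusted p = 0.000123), a 1.70-fold increase. The WT call was lost without WT unconfined replicate 1 or 3 or WT confined replicate 3 or 6 (limma adjusted p = 0.0862, 0.141, 0.0780 and 0.0698).

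No other member passed the test for confinement with limma. The medians were 0.05 in WT and 0.04 in WKO cells, beside -0.007 and -0.013 for all tested genes. Srebf2 differed by 0.03 averaged over genotypes, with an interval from -0.12 to 0.19, and Scap by 0.14. Fads2 was the next highest in WKO cells at 0.72 (limma adjusted p = 0.184) and Scd1 the next highest in WT cells at 0.50 (adjusted p = 0.653). The lowest were Fdft1 (-0.58, limma adjusted p = 0.282) and Lss (-0.56, adjusted p = 0.385) in WKO cells and Mvd (-0.30, adjusted p = 0.650) and Tm7sf2 (-0.26, adjusted p = 0.637) in WT cells. The WT and WKO confinement comparisons use separate libraries, but each shares its libraries with a genotype comparison above.

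**Figure D4:**
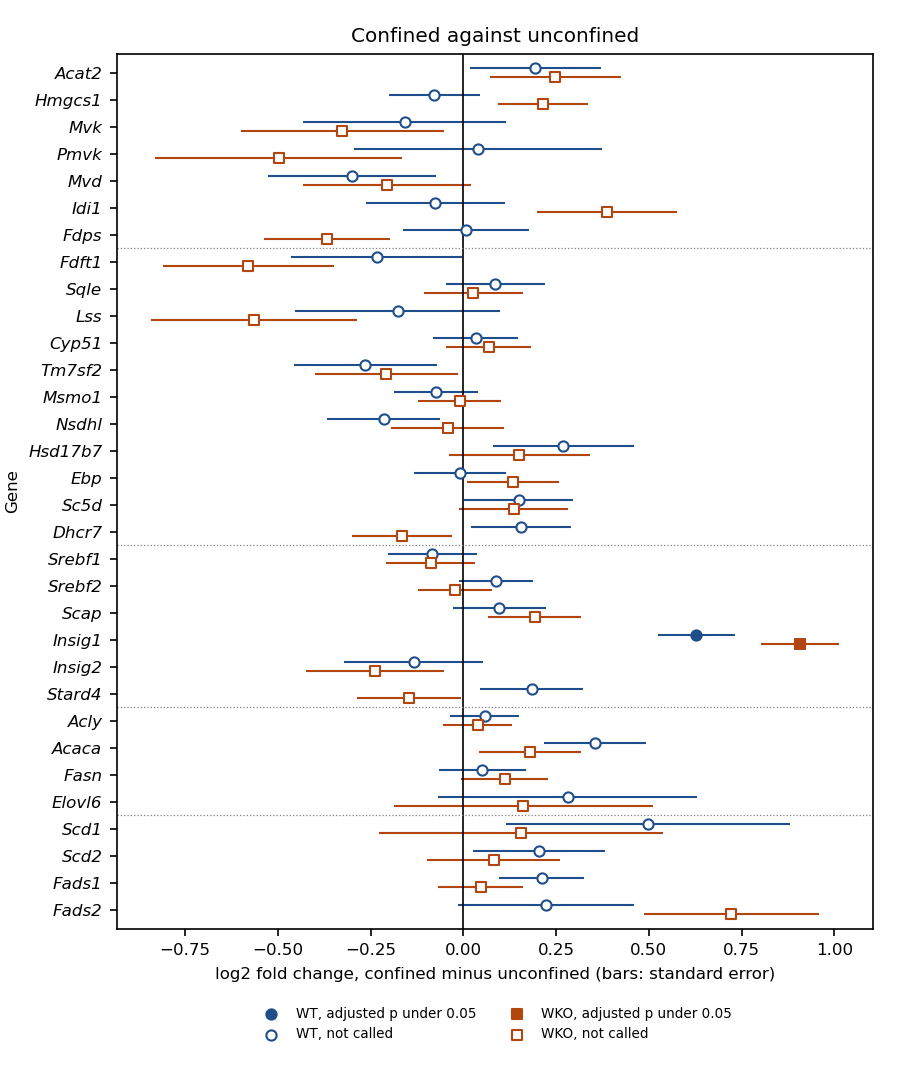
Log2 difference of confined from unconfined cells for each of the 32 members (vertical, by class), in WT and in WKO cells, with bars of 1 standard error from limma and filled symbols for adjusted p under 0.05. Insig1 lies at 0.63 and 0.91, and the other members scatter around 0.

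Whether the response to confinement differed between genotypes was tested as an interaction, and 0 of the 32 members passed (0% of tested genes did, and 0 members had an unadjusted p under 0.05, with limma, while edgeR and DESeq2 called 0). Among all tested genes 258 had an unadjusted p under 0.05. For Insig1 the rise was larger in WKO cells by 0.28, with an interval from -0.04 to 0.60 (limma adjusted p = 0.999). The extremes were Fads2 at 0.50 and Idi1 at 0.46 on the higher side and Pmvk at -0.54 and Lss at -0.39 on the lower side.

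Genes around the members were taken from 4 further lists. In each list limma called 1 gene higher on confinement averaged over genotypes, where 4.13% of tested genes were. DESeq2 called 2 in the SREBP processing list (Gsk3b, Sec24a), 3 in the fatty acid list (Acsl4, Elovl5, Lpin1) and 1 in each other list. It called 1219 of all tested genes in either direction. In lists this short, 1 to 3 calls are not read as a result about the list. Of 11 genes of SREBP processing and turnover, 0 were called in a genotype comparison by limma, edgeR or DESeq2, and 0 had an unadjusted p under 0.05 in any of them. Gsk3b, a kinase that marks nuclear SREBP for degradation, rose on confinement averaged over genotypes (0.49, limma adjusted p = 0.0363). Of 23 other sterol and isoprenoid genes, 1 fell in WKO cells averaged over conditions, beside 2.67% of tested genes. It was Aacs (-0.46, limma adjusted p = 0.0141). Aacs activates acetoacetate for sterol and fatty acid synthesis. In the same list Nceh1, a cholesteryl ester hydrolase, rose on confinement (0.34, limma adjusted p = 0.0233).

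Of 23 further fatty acid genes 21 could be tested, and 0 were called by genotype in the averaged limma comparison, where 9 had an unadjusted p under 0.05 (20.2% of all tested genes did), edgeR called 0 and DESeq2 called 1, Mid1ip1, an activator of acetyl-CoA carboxylase. Acsl4, which activates arachidonate, rose on confinement averaged over genotypes (0.55, limma adjusted p = 0.0381). A further list held 8 genes of liver X receptors and their targets, which include the member Srebf1. Of these Apoe, the lipoprotein that carries cholesterol out of macrophages, was higher in WKO cells. The difference was 1.25 in confined cells (limma adjusted p = 0.0119) and 0.99 averaged (adjusted p = 0.00614). In unconfined cells, 0.72 did not pass (limma adjusted p = 0.378). The WT unconfined libraries were far apart there, with a mean of 39988 and an SD of 18600. The sterol exporter Abca1 differed by 0.44 averaged over conditions (limma adjusted p = 0.0955), and DESeq2 called it higher. Abcg1 had means of 3389 in WT and 3391 in WKO unconfined cells, and 3568 and 3563 in confined cells. Averaged over conditions, the list's median difference was 0.08, with 5 genes higher and 3 lower, among them Lpcat3 (-0.08) and Srebf1 (-0.25). In that comparison limma called 1 of the 8 higher, beside 361 of 12455 tested genes. DESeq2 called 2 of the 8 higher, Abca1 and Apoe, and 1147 of all tested genes in either direction. Mylip, a ubiquitin ligase for lipoprotein receptors, rose on confinement averaged over genotypes (0.84, limma adjusted p = 0.0267). Of 19 alternatives, Gsk3b lost its call under 11 (limma adjusted p up to 0.390), Nceh1 and Acsl4 under 10 each, Mylip under 6, Aacs under 4 and the averaged Apoe under 0. The confined Apoe call was lost without WT confined replicate 2 (limma adjusted p = 0.0514). Each of the 4 confinement calls was lost without WT unconfined replicate 1, WKO unconfined replicate 1 or 3, or WT confined replicate 3, and that of Aacs without WT unconfined replicate 3 or either WKO unconfined library.

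Counting of some members is uncertain. Another gene covers at least 20% of the transcript at 95% identity or more for 4 of them: Acat2 (its copy Acat3), Idi1, Fdft1 and Acaca. For 11 members an exon overlaps an exon of another gene, among them Fdps, Fdft1, Lss, Cyp51, Scap and Scd2, and the use of strand in counting is not given in the sources used here. The largest overlap was in Fdps, 26.7% of its exon length, with Gm43738 on the same strand, which use of strand would not separate. Its effect on the Fdps calls was not tested.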

How the data were processed

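RNA sequencing of 10 libraries from polyadenylated RNA (5 ng of total RNA each) was analysed. The authors deposited a table of normalized read counts, treated as a signal. Per the submitters' processing notes the tools were FastQC, Trim Galore and STAR and the builds GRCm38 and mm10. Versions, the counting tool and the use of strand are not given in the sources used here. In each library 100% of values were whole multiples of the worth of 1 read (tolerance 1e-06), and DESeq2 factors recomputed on those reads equalled the deposited ones. The values are therefore reads divided by 1 DESeq2 size factor per library. Such a factor does not correct for gene length or for RNA from other cell types in a library. A floor of 3 reads is 2.35 to 3.59 normalized reads, for counting error only, since PCR reads are not independent molecules.

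Genes with a mean of at least 10 were tested as log2(value + 1), which understates changes of low genes, with limma 3.58.1 in R 4.3.3. It fitted 1 mean per group to all 10 libraries (6 residual degrees of freedom) with a variance trend. Contrasts were WKO against WT and confined against unconfined, each within and averaged over the other factor, and the interaction; averages reuse the libraries of the single comparisons. P-values were Benjamini-Hochberg adjusted over all tested genes (threshold 0.05). Errors are SE and intervals 95%. The method was tested on simulated data. Alternatives were other pseudocounts, filters and scalings, edgeR 4.0.16 and DESeq2 1.42.0 on recovered reads, a replicate block, fits of only the groups compared, and leaving out each library. Members and lists were chosen with earlier results of these data known. Library values are printed for members called in any comparison and for the 2 highest and 2 lowest differences of each comparison. Genes of other lists are named where called or among the 2 largest changes. Transcript similarity was measured with blastn 2.17.0 on GENCODE M21. No pair of replicates agreed within sampling noise. Protein sequences were not used here.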

Additional observations from a re-analysis of the deposited data

How the results depend on the processing

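Of 48 member results, 26 were called, and their 935 alternative values left 835 on the same side of the threshold with the same direction, 72 weaker, 15 stronger and 13 reversed, with 0 reversed among called results; 10 called results passed under every alternative run. In unconfined cells the 0 members called by genotype became 9 with DESeq2, 6 with the replicate block and 4 when only the groups compared were fitted, and 0 to 6 when a library was left out (6 without WKO confined replicate 5). In confined cells the 8 became 13 with DESeq2, 6 with the replicate block (4 of the 8 kept; Cyp51, Fasn, Msmo1 and Sc5d lost), 2 with only the groups compared, and 1 to 11 when a library was left out. Averaged over conditions, 15 became 14 with the replicate block (13 of the 15 kept) and 7 to 18 with a library left out. On confinement, the 1 member called in WT became 0 with the replicate block and 0 to 1 with a library left out; the 1 in WKO became 1 to 3 and the 1 averaged over genotypes 1 to 2. Median differences with a library left out ranged from -0.47 to -0.26 for genotype in unconfined cells, from -0.00223 to 0.10 for confinement in WT and from -0.0694 to 0.0261 for the interaction. Upper-quartile scaling moved the median of all genes by -0.07 in WT and -0.10 in WKO on confinement and gave member medians of -0.0175 in WT, -0.0599 in WKO and -0.0336 averaged. Uncalled single genes changed sign: Tm7sf2 was 0.0180 in unconfined cells with upper-quartile scaling, and -0.12 to 0.11 unconfined, -0.0478 to 0.14 confined and -0.0342 to 0.0814 averaged with a library left out. Scap was -0.0523 confined and -0.0419 averaged with the replicate block, and -0.0327 to 0.0649 averaged with a library left out. Over all tested genes, calls by genotype were 18 unconfined (4 to 245 over the alternatives), 322 confined (58 to 775) and 694 averaged (169 to 1147), and by confinement 144 in WT (22 to 455), 214 in WKO (33 to 1043) and 773 averaged (288 to 1807). The causes were not tested. Of 7 same-numbered pairs, correlations were -0.11 to 0.08 and 0 of 8 libraries correlated best with their own number. These values gave no sign that the numbers pair the libraries, but they cannot settle it. The 2 libraries of an unconfined group deviate from their mean by equal and opposite amounts, and the pairs are few. With 2 unconfined libraries per genotype, leaving one out leaves 1, assumed to vary like the other groups. The lowest member count was 48 reads, in Scd1; the effect of depth on the calls was not tested.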
